A study of Homo sapiens with 8 samples.

Results

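The MYC, MAX and MXD network is a set of transcription factors that share the basic helix-loop-helix leucine zipper fold, and it was followed here in SQ20B cells, an established line from a human head and neck squamous cell carcinoma, in normoxia and after 16 h in 0.5% O2. All entries whose RefSeq identifier belonged to MYC, MAX, MXI1, MXD1, MXD3, MXD4, MNT, MLX, MLXIP or MGA were taken, which gave 10 genes of 14528 named genes and 23 transcripts of 24812 listed transcripts. Polyadenylated RNA had been sequenced from 4 normoxic and 4 hypoxic samples of this single line, with no genetic change in either group, and the oxygen level of the normoxic cultures is not given in the labels. The deposited table holds a single FPKM value (a fragment count scaled for transcript length and library size) for each transcript and condition, pooled over its 4 samples. There is therefore no spread between replicates for any value below, no difference was tested, and the number of reads behind a value was not analysed here. A difference was counted when it reached 1.5-fold, on the scale of log2((hypoxia FPKM + 0.1)/(normoxia FPKM + 0.1)), among genes or transcripts that averaged 0.5 FPKM or more across the conditions.

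In this network MAX is the shared partner. MYC binds DNA as a pair with MAX, mostly at the sequence CACGTG, known as the E-box, and recruits histone acetyltransferases that raise transcription of genes for growth and ribosome production. The MXD proteins (MXD1, MXI1, MXD3 and MXD4) and MNT bind the same sequence with MAX and recruit the SIN3 and histone deacetylase corepressor, so they oppose MYC, and MXI1 is also known as a gene that hypoxia-inducible factors can activate. MGA pairs with MAX within a Polycomb-type repressor complex, whereas MLX is a MAX-like protein whose partner MLXIP (also called MondoA) responds to glucose metabolites.

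The libraries carried an epithelial profile and a hypoxia response. Of 8 squamous epithelial markers, 6 were analysed (KRT5, KRT6A, KRT17, TP63, CDH1 and ITGB4), while KRT14 and EGFR had no named entry. The 6 summed to 559 FPKM in normoxia and 632 FPKM in hypoxia. Most of this was KRT5 (398 and 442 FPKM), and the lowest in normoxia was ITGB4 (2.06 and 3.79). Of 11 markers of other cell types CD68 alone was analysed, at 2.36 and 2.86 FPKM. All 9 genes of a hypoxia reference list that were analysed passed 1.5-fold upwards, with a median log2 change of 2.83 and the largest changes for CA9, EGLN3 and ANKRD37. Of 12106 genes that averaged 0.5 FPKM or more, 9.95% were at least 1.5-fold higher in hypoxia and 11.2% at least 1.5-fold lower, and the median log2 change was -0.07. The FPKM columns summed to 536005 in normoxia and 458431 in hypoxia, and setting these sums equal raised the log2 changes by about 0.23, and by less at levels near the added 0.1 FPKM. With equal sums 78.8% of the genes past 1.5-fold were higher, against 46.9% as deposited, and 18.3% of all genes were then at least 1.5-fold higher and 4.94% at least 1.5-fold lower. In RNA from whole cultures, a change in the make-up of the cells and a change in RNA per cell cannot be told apart.

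Of the 10 network genes, 8 averaged 0.5 FPKM or more. MXI1 and MXD1, both MYC antagonists, were at least 1.5-fold higher in hypoxia, MYC and MLXIP at least 1.5-fold lower, and MAX, MLX, MGA and MXD3 lay between these limits. The 2 higher genes were 25.0% of the 8, beside the 9.95% of all genes, and the 2 lower genes were also 25.0%, beside 11.2%. MNT and MXD4 lay below the limit of 0.5 FPKM. The median log2 change of the 8 genes was -0.32, against -0.07 for all genes, and 6 of the 8 were below 0, as were 6831 of all 12106 genes. With equal column sums MXD3 (0.03) and MGA (0.11) were above 0.

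**Figure D1:**
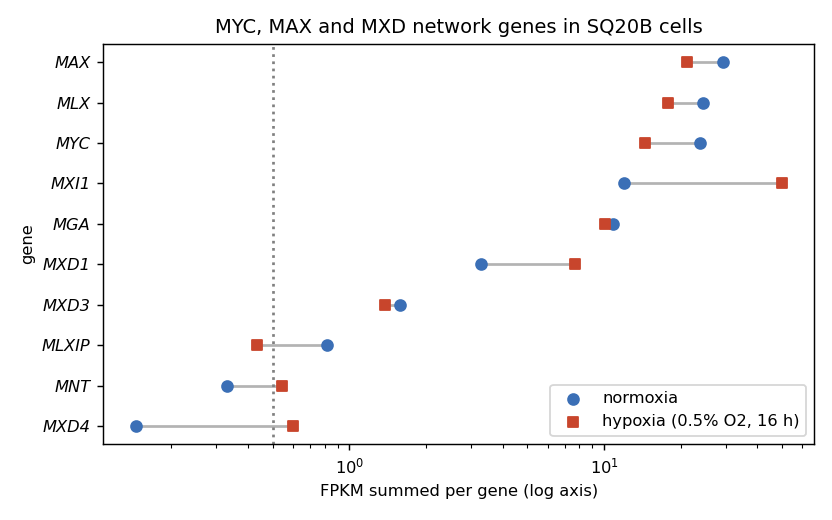
FPKM summed over the listed transcripts of each network gene, on a log axis, in normoxia (circles) and hypoxia (squares), with 1 pooled value per condition and no error available; the dotted line marks 0.5 FPKM. MXI1 moved from 12.01 to 50.0 FPKM and from rank 4 to rank 1, while MAX, MLX and MYC each had a lower value in hypoxia.

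MYC, the activator of the network, lies on chromosome 8 of hg19 (128748315 to 128753680) and was listed with a single transcript, NM_002467. Its level was 23.8 FPKM in normoxia and 14.5 FPKM in hypoxia. This was 1.64-fold lower, with a log2 change of -0.71 that lay at percentile 7.22 of all genes. MYC was at rank 3 of the 10 genes by level in normoxia and at rank 4 in hypoxia. With equal column sums the log2 change of MYC was -0.48, which is short of 1.5-fold. The genes whose pair of levels was nearest to that of MYC over the 2 conditions, by Euclidean distance on the log2 scale, were PSME3 (24.3 and 14.7 FPKM), ARL14 (23.7 and 15.0) and TDG (23.2 and 14.3). Of the other MYC family genes, MYCL went from 1.39 to 2.21 FPKM, a log2 change of 0.64. MYCN was listed at 0.0779 and 0.255 FPKM, below the limit in both conditions.

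MAX, the common partner, was the most abundant network gene in normoxia (29.2 FPKM) and the second in hypoxia (21.2 FPKM), with a log2 change of -0.46. Its locus in the deposited table, on chromosome 14 of hg19 (65381079 to 65569413), also holds CHURC1, FNTB, GPX2 and RAB15. In the GENCODE annotation of GRCh37, 56479 bases of MAX lie opposite FNTB on the other strand, and the sources used here do not say whether strand was used when reads were assigned. FNTB was at 1.44 and 1.55 FPKM and the summed CHURC1-FNTB readthrough transcripts at 6.76 and 7.07. Whether reads of these genes entered the MAX values was not tested. An identifier without a gene symbol in the same locus, NM_001204063, had 22.1 and 23.9 FPKM and was not counted as MAX.

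Of the 7 MAX transcripts, 2 carried most of the level. NM_145112 went from 13.3 to 10.2 FPKM (log2 change -0.37) and NM_002382 from 12.3 to 7.40 FPKM (-0.73), and their shares of the MAX total went from 45.5% to 48.4% and from 42.2% to 34.95%. The 5 coding transcripts together went from 28.7 to 19.6 FPKM, a log2 change of -0.55. The 2 noncoding transcripts went the other way, from 0.449 to 1.53 FPKM in sum, and their share of the MAX total from 1.54% to 7.24%. Most of this was NR_073137, which was listed at 0.0483 and 0.953 FPKM. Its log2 change of 2.83 starts from a level near 0, and its mean of 0.501 FPKM lies just inside the limit, while that of the other noncoding transcript, NR_073138, lies just outside at 0.490 FPKM.

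MXI1, an MXD protein, had the largest change of the network. The level summed over its 3 transcripts was 12.01 FPKM in normoxia and 50.0 FPKM in hypoxia, 4.16-fold higher, with a log2 change of 2.05 at percentile 99.5 of all genes. It was at rank 4 of the network genes in normoxia and at rank 1 in hypoxia, where its FPKM was 3.44 times that of MYC, compared with 0.504 times in normoxia. The genes nearest to MXI1 in their pair of levels, by the same distance, were ARLN (14.8 and 55.2 FPKM), ADM (16.8 and 49.2) and CEMIP2 (16.5 and 39.9).

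The 3 MXI1 transcripts differ in their first exon, and the forward primers that the study designed show where each begins. The reverse primer is common to all and lies in the shared exon 2, at chr10:111988045-111988061 of GRCh37, within the coding sequence. Each forward primer spans the junction from a private first exon (lower case) to exon 2 (capitals), written 5′ to 3′.
NM_130439 forward: gaaaacaaaaAGTCTGAACATG
NM_001008541 forward: ctaagtcaacttcatAGTGT
NM_005962 forward: gggagcgagAGTGTGAACAT
Common reverse, on the minus strand: ttgctgctcccgctgct

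Matched against the GENCODE transcripts of GRCh37, the NM_001008541 and NM_005962 primers were each found without a mismatch in a single MXI1 transcript. The NM_130439 primer was found in another with 1 mismatch, C14G, counted from its 5′ end with the primer base first. On this match the first exon of NM_130439 is at chr10:111967363-111967840, that of NM_001008541 at chr10:111969989-111970073 and that of NM_005962 at chr10:111985751-111986041. The start of NM_001008541 is thus 2626 bases and that of NM_005962 18388 bases downstream of the first start site. NM_130439 and NM_005962 have their start codon in the first exon, with coding sequences of 295 and 228 codons. NM_001008541 has its start codon in exon 2 and lacks a 30-base exon (chr10:112004586-112004615) that the other transcripts include, and its coding sequence has 182 codons.

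The difference was unequal across the 3 transcripts. NM_130439, from the most upstream site, was at 0.635 FPKM in normoxia and 11.2 FPKM in hypoxia, a log2 change of 3.94. NM_001008541 was at 6.54 and 29.3 FPKM (2.15) and NM_005962, from the most downstream site, at 4.84 and 9.51 FPKM (0.96). All 3 passed 1.5-fold. These are levels assigned to whole transcripts that share exons, and the signal at each start site was not measured on its own. NM_130439 gained 17.1 percentage points of the summed MXI1 level, NM_001008541 gained 4.17 and NM_005962 lost 21.3. The order by level was NM_001008541, NM_005962 and NM_130439 in normoxia, and in hypoxia NM_130439 stood above NM_005962. The difference between transcripts was not tested, and the pooled values do not give its error.

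**Figure D2:**
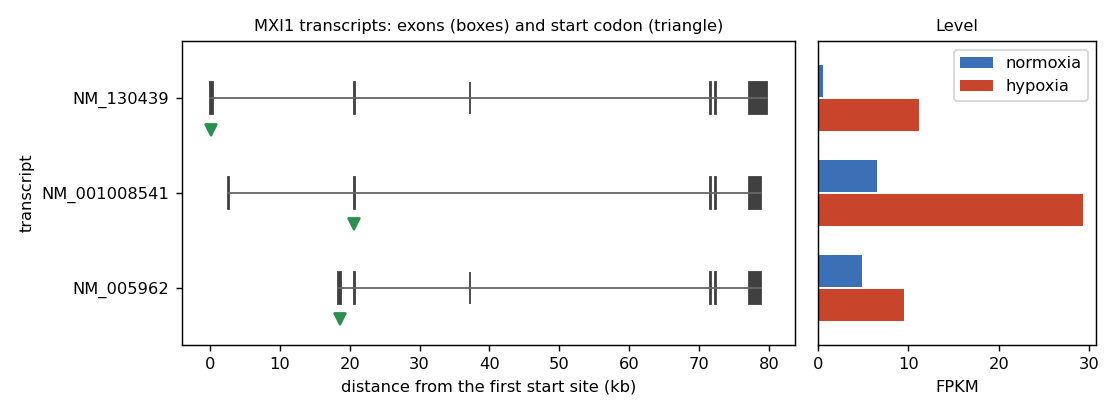
Left, the 3 MXI1 transcripts drawn to scale by distance (kb) from the most upstream start site, with exons as boxes and the start codon as a triangle; right, bars of the pooled FPKM of each in normoxia and hypoxia. The transcript that starts at 0 kb went from 0.635 to 11.2 FPKM, and the one that starts furthest downstream from 4.84 to 9.51 FPKM.

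The 3 transcripts differed in their change, so the 250 bases before the start of each are given here. They come from the RefSeq promoter table (GRCh38.p14), and each matched exactly at a single place in chromosome 10 of GRCh37, plus strand. Capitals mark ACGTG or GCGTG on either strand (written CACGT or CACGC when on the minus strand), the core letters that hypoxia-inducible factors bind.
Before NM_130439, chr10:111967113-111967362: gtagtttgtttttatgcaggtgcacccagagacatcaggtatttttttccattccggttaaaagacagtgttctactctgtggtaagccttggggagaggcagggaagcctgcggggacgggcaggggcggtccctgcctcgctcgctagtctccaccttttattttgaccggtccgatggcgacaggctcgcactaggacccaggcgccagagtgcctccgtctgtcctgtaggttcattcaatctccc
Before NM_001008541, chr10:111969739-111969988: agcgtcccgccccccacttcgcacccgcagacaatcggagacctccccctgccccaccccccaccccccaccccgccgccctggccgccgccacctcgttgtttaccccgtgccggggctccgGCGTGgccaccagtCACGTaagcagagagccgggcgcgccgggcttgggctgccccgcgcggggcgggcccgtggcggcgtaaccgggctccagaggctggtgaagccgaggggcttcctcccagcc
Before NM_005962, chr10:111985504-111985753: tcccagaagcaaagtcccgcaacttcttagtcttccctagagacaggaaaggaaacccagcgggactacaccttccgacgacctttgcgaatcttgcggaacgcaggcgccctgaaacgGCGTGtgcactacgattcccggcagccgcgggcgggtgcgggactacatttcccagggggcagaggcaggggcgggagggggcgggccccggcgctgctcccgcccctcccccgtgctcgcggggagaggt

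The window before NM_005962 is taken from the RefSeq start, which lies 3 bases after the GENCODE one. The window before NM_001008541 held 2 such cores, at 127 and 113 bases before its start, and that before NM_005962 held 1, at 131 bases. The window before NM_130439, the transcript with the largest change, held none of these letters. Among 34943 promoter windows of the same length, 18.5% held ACGTG, 32.2% GCGTG and 43.2% either of them, so a core of this kind is common, and a match describes the sequence without showing a bound site. Of the 14 such windows held for 9 of the network genes, with none for MYC, 10 had a core.

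MXD1, an MXD protein that accumulates in differentiating epithelial cells, was the other network gene past 1.5-fold upwards. Its summed level was 3.30 FPKM in normoxia and 7.69 FPKM in hypoxia, 2.33-fold higher, with a log2 change of 1.197 at percentile 97.9. The gene lies on chromosome 2 of hg19 (70142173 to 70170076), and the difference came from 1 of its 2 transcripts. NM_002357 was at 1.86 and 6.37 FPKM (log2 change 1.72), whereas NM_001202513 was at 1.44 and 1.32 FPKM (-0.11). NM_002357 held 56.5% of the summed level in normoxia and 82.8% in hypoxia, a gain of 26.4 percentage points. The 250 bases before the MXD1 start held neither ACGTG nor GCGTG.

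The remaining MXD genes were scarce. MXD3, which is linked to proliferating cells, went from 1.58 to 1.38 FPKM, with log2 changes of -0.29 for NM_001142935 and -0.05 for NM_031300. Summed per gene, its log2 change of -0.18 became 0.03 with equal column sums. MXD3 shares its locus on chromosome 5 with PRELID1, which was far more abundant, at 143 and 74.7 FPKM, and the genes overlap over 3151 bases on opposite strands. MXD4 was listed at 0.145 and 0.602 FPKM, with a log2 change of 1.52 that was 0.49 when 1 FPKM was added in place of 0.1. MNT, the most widely expressed of the MYC antagonists in normal tissues, was listed at 0.332 and 0.542 FPKM, a log2 change of 0.57. Both mean levels were under 0.5 FPKM, so neither gene was counted.

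MGA, on chromosome 15 of hg19 (41952610 to 42062141), was close to level, at 10.9 and 10.1 FPKM. Its log2 change was -0.11 as deposited and 0.11 with equal column sums. NM_001164273, the more abundant transcript, was at 7.24 and 7.25 FPKM, and NM_001080541 at 3.63 and 2.82 FPKM.

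Added over the network members whose proteins pair with MAX (MYC, MXI1, MXD1, MXD3, MXD4, MNT and MGA), the FPKM values came to 52.1 in normoxia and 84.8 in hypoxia. MYCL and MYCN lie outside the members and were not added. MYC was 45.8% of this sum in normoxia and 17.1% in hypoxia. The 4 MXD genes went from 32.7% to 70.4%, and MXI1 alone from 23.1% to 59.0%. MYC was 1.37 times the sum of the MXD genes and MNT in normoxia and 0.241 times in hypoxia, a ratio that no scaling of whole columns can change. The partner sum was 1.78 times the MAX level in normoxia and 4.01 times in hypoxia. These are RNA levels per length of transcript, and protein was not analysed here. When each gene was represented by its most abundant transcript alone, an alternative chosen after the data were seen, the share of MYC was 58.4% and 24.5%.

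**Figure D3:**
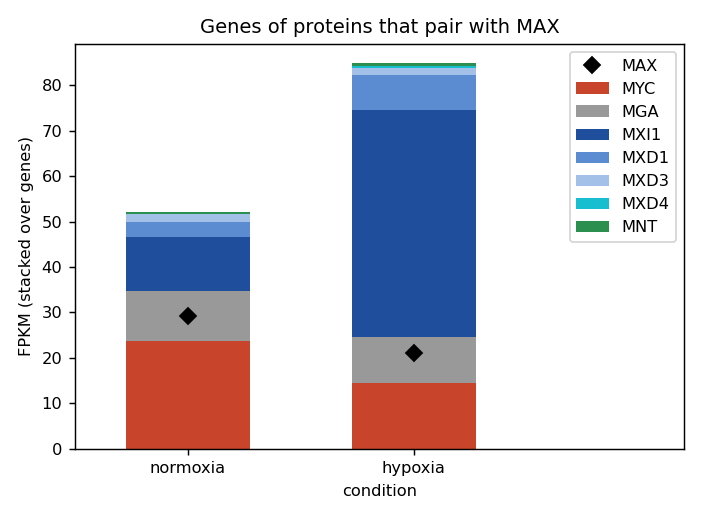
Stacked bars of the pooled FPKM of the 7 network members whose proteins pair with MAX, in normoxia and hypoxia, with the level of MAX itself as a diamond. MYC was the largest block in normoxia (45.8% of the sum) and MXI1 in hypoxia (59.0%), while MAX was lower in hypoxia (21.2 FPKM) than in normoxia (29.2 FPKM).

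On the MLX side of the network MLXIP was counted as lower in hypoxia, while MLX lay within 1.5-fold. MLX went from 24.4 to 17.8 FPKM, a log2 difference of -0.45, and kept nearly the same proportion to MAX (MAX was 1.197 times MLX in normoxia and 1.19 times in hypoxia). Its main transcript NM_198204 was at 20.2 and 15.4 FPKM, NM_198205 at 3.97 and 2.39 FPKM, and NM_170607 at 0.206 and 0.0493 FPKM. MLX overlaps PSMC3IP over 930 bases on the opposite strand, and PSMC3IP was at 12.5 and 10.4 FPKM. MLXIP was listed at 0.814 and 0.435 FPKM, a log2 change of -0.77 at percentile 5.70 that was -0.58 with equal column sums, and MLX exceeded it 29.9-fold in normoxia and 40.9-fold in hypoxia. Both MLXIP values lie near the limit of 0.5 FPKM, and with 1 FPKM added its log2 change was -0.34. ARRDC4, an arrestin-family gene known as a target of MLX and MLXIP, was higher, at 9.85 and 16.4 FPKM (log2 change 0.73). It was 1 of 2 such targets on the list, and the other had no named entry.

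Across the 23 network transcripts, 19 averaged 0.5 FPKM or more. Of these, 5 were at least 1.5-fold higher in hypoxia (26.3%, beside 10.5% of all transcripts) and 6 at least 1.5-fold lower (31.6%, beside 14.3%). The 5 higher transcripts were the 3 of MXI1, NM_002357 of MXD1 and the noncoding NR_073137 of MAX. The last, with a mean of 0.501 FPKM, passed the limit only through its value in hypoxia. The 6 lower ones were MYC NM_002467, MLXIP NM_014938, MLX NM_198205 and 3 MAX transcripts (NM_002382, NM_145114 and NM_001271068). Transcripts of a gene share reads, so they are not separate observations. Among the 6 network genes with 2 or more listed transcripts, 2 (MXI1 and MXD1) had a transcript whose share moved by at least 10 percentage points, where 14.1% of all such genes did.

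**Figure D4:**
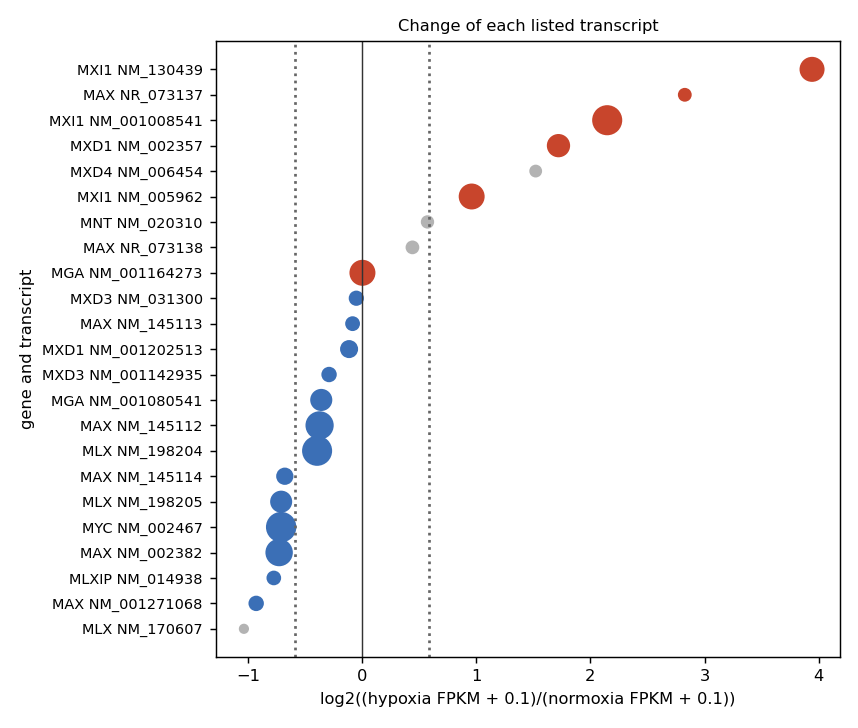
Log2 change of each of the 23 listed network transcripts, with point area growing with mean FPKM, red above 0, blue below 0, grey for a mean below 0.5 FPKM, and dotted lines at 1.5-fold. The 3 MXI1 transcripts lie between 0.96 and 3.94, and the single MYC transcript lies at -0.71.

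The network binds the E-box, and 3 of the 9 network genes with a promoter window carry that sequence in the 250 bases before their start. MYC had no window and was not searched. The 3 stretches of GRCh37, with 10 bases on each side and CACGTG in capitals, are written on the strand of the gene.
MLX, chr17:40719058-40719083, plus strand: gggcgcgggtCACGTGggcacgccac
MNT, chr17:2304532-2304557, minus strand: ctgcccgggcCACGTGtgcgcgcgcc
MXD4, chr4:2264059-2264084, minus strand: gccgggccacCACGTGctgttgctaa

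The E-box began 50 bases before the start of MLX, 193 bases before that of MNT and 238 bases before that of MXD4. Of the 14 network windows 3 held CACGTG, where 6.32% of all promoter windows of this length did. CACGTG contains ACGTG on both strands and so also counts as 2 cores in the search above. The 3 genes did not go the same way, with log2 changes of -0.45 for MLX, 0.57 for MNT and 1.52 for MXD4, the last 2 from levels below the limit.

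Genes that MYC is known to activate were mostly lower in hypoxia. The list is rich in genes of ribosome production and was chosen with earlier results of these data known. In it, 58 of the 62 genes averaged 0.5 FPKM or more. Of these, 38 (65.5%) were at least 1.5-fold lower, beside 11.2% of all genes, 1 was at least 1.5-fold higher, and the median log2 change was -0.84 against -0.07 for all genes. The lowest were RRP9, a processing factor of ribosomal RNA precursors (5.57 and 1.53 FPKM, log2 change -1.80), ODC1, the first enzyme of polyamine synthesis (157 and 50.1, -1.65), and MRTO4, a ribosome assembly factor (62.4 and 20.1, -1.63). The exception in the other direction was HK2, a hexokinase of the first step of glycolysis that hypoxia is also known to induce, at 4.60 and 24.5 FPKM (2.39). With equal column sums 30 of the 58 genes were at least 1.5-fold lower, where 4.94% of all genes were. The part of MYC in these differences was not tested.

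Of 7 genes that MYC is known to repress, 6 were above 0, as were 5275 of all 12106 genes. Of the 7, 2 (28.6%, beside 9.95% of all genes) passed 1.5-fold upwards. The median of the 7 was 0.39 on the log2 scale, beside -0.07 for all genes. With equal column sums 4 of the 7 passed upwards, but the share of all genes that did so also rose, to 18.3%. With 1 FPKM added the median of the 7 was 0.20. The 2 as deposited were NDRG1, which is also known as hypoxia-induced (6.19 and 300.0 FPKM, log2 change 5.58), and CDKN1A, the cyclin-dependent kinase inhibitor p21 (16.6 and 34.4, 1.05). GADD45A, a growth arrest and DNA damage gene, was lower, at 19.5 and 11.0 FPKM (-0.81).

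Cofactors of both arms were read in the same way. In the SIN3 corepressor complex, through which MXD proteins and MNT repress, 1 of 17 genes was at least 1.5-fold higher (5.88%, beside 9.95% of all genes) and 1 at least 1.5-fold lower (5.88%, beside 11.2%). The median log2 change was -0.04, and with equal column sums it was 0.18, with 4 genes higher and 1 lower. Under that scaling 18.3% of all genes were higher and 4.94% lower. SIN3A, the scaffold that MXD proteins bind, was higher (7.09 and 11.6 FPKM, 0.70) and BRMS1 lower (45.1 and 20.4, -1.14). Of 12 MYC coactivators and partners, 3 were at least 1.5-fold lower (25.0%, beside 11.2%), and they were RUVBL1 (90.7 and 45.3 FPKM), RUVBL2 (19.8 and 11.0, -0.84), which are paired ATPases of chromatin remodelling complexes, and WDR5 (27.9 and 18.3, -0.60), a histone methyltransferase subunit. TRRAP, the scaffold that joins MYC to acetyltransferases, was higher (2.62 and 4.77, 0.84). The median log2 change of the 12 genes was -0.19, and 0.02 with equal column sums.

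Of the 14 analysed genes of MYC protein turnover, 2 were at least 1.5-fold lower (14.3%, close to the 11.2% of all genes) and none was counted as higher. With equal column sums 2 were higher and 1 lower, where 18.3% of all genes were higher and 4.94% lower. The ubiquitin ligase gene FBXW7 was at 17.8 and 16.7 FPKM. AURKA, a mitotic kinase that can stabilise MYC family proteins, was lower (189 and 87.7, -1.11), as was STUB1, a chaperone-linked ubiquitin ligase (2.83 and 1.69, -0.71). In the Polycomb-type complex of MGA, 11 of 12 genes were below 0, as were 6831 of all 12106 genes, and the median was -0.39. At least 1.5-fold lower were 3 (25.0%, beside 11.2%), namely E2F6 (8.72 and 5.38 FPKM, -0.69), L3MBTL2 (8.32 and 5.23, -0.66) and WDR5, which both lists hold. With equal column sums, where 4.94% of all genes were lower, the 3 became 0, and with 1 FPKM added 1.

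**Figure D5:**
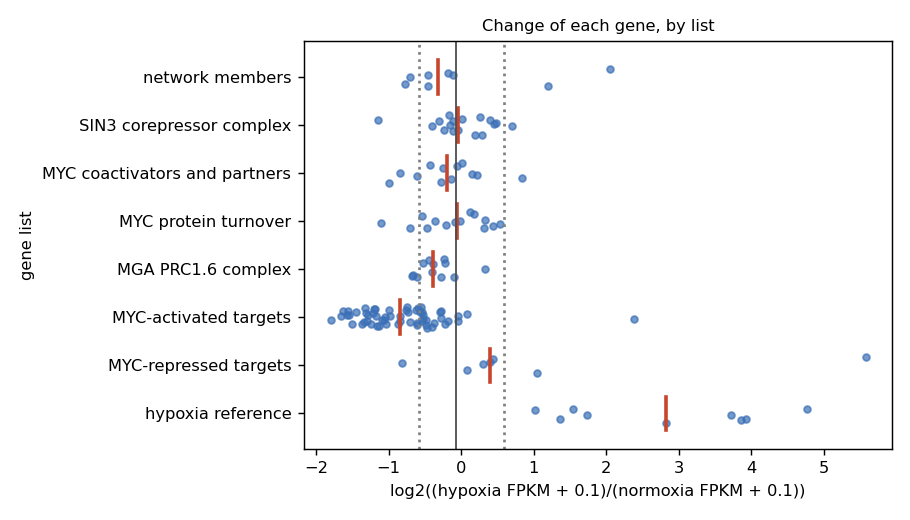
Log2 change of each gene averaging 0.5 FPKM or more in 8 lists (points, spread vertically at random), with a red bar for the median of the list, a solid line for the median of all genes and dotted lines at 1.5-fold. The MYC-activated targets have a median of -0.84 and the hypoxia reference genes of 2.83, while the SIN3 complex genes centre on -0.04.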

How the data were processed

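Stranded libraries were made from poly(A) RNA. The authors mapped reads to hg19 with STAR 2.3.0.1 and ran the Cufflinks suite 2.1.1 with RefSeq hg19 annotation and standard parameters. The deposited FPKM values are the authors' values, 1 per transcript and condition over its 4 samples. The remaining deposited columns hold the authors' own comparison (log2 fold change, test statistic, p-value and q-value) and were not used, so no difference is given with a test. Depth and counts were not analysed here.

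RefSeq identifiers were paired with symbols through the annotation of GRCh38.p14, used for names only, which named 24293 of 24812 transcripts (97.9%). FPKM values were summed per gene, 0.1 was added before the log2 ratio, and genes averaging under 0.5 FPKM were not counted. The procedure was checked on simulated data with known fold changes. Coordinates are those of the table (hg19, counted from 1) or of exact sequence matches to GRCh37. The members and the lists were chosen with earlier results of these data known. Named are all members, and from each list up to 3 genes with the highest and 3 with the lowest change past 1.5-fold. Outside this rule, FBXW7 was named after its values were seen, MYCN lies below the FPKM limit, and the epithelial markers and CD68 are named as a check of the cell type. The nearest genes are the 3 closest in both levels. Python 3.11.15, numpy 2.4.6, pandas 2.3.3 and matplotlib 3.10.9 were used. The alternatives were other added values, FPKM limits, scalings, fold limits, transcript choices and share limits.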

Additional observations from a re-analysis of the deposited data

How the results depend on the processing

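No paired analysis was possible because each condition was analysed as 1 pooled column, and leaving out a replicate was not possible for the same reason. The 2 network genes counted as lower, MYC and MLXIP, became 1 with 1 FPKM added or a mean of at least 1 FPKM required, 0 with equal column sums or a limit of 2-fold, and 4 at 1.2-fold. The 6 lower transcripts became 2 with 1 FPKM added, 1 with equal sums, 0 at 2-fold and 10 at 1.2-fold. The 5 higher transcripts became 4 with a mean of at least 1 FPKM required or at 2-fold, and 6 with equal sums. Over all lists of targets, cofactors and reference genes, 16 genes were higher and 47 lower. Of the 16, 9 were hypoxia reference genes, and of the 47, 38 were MYC-activated targets, so these counts mostly reflect those 2 lists. The 16 and 47 became 28 and 71 at 1.2-fold, while the lower ones became 28 at 2-fold. Over all 12106 genes the counts also rose and fell with the limit. They were 1204 higher and 1361 lower, 2881 and 3990 at 1.2-fold, and 317 lower at 2-fold. A share limit of 5 percentage points counted 4 network genes in place of 2, and the share of all genes at that limit was not computed. The log2 change of MXI1 lay between 1.97 and 2.27 over the alternatives, that of MXD1 between 1.02 and 1.72, and that of MYC between -0.71 and -0.48. MLXIP lay between -0.89 and -0.34, and MXD4 between 0.49 and 1.99. Among the 10 network genes and their 23 transcripts, none past 1.5-fold turned its direction under any alternative that was run. Most alternatives could not have turned one. Other added values, FPKM limits and fold limits leave the direction as it is, and equal column sums raised the log2 changes by only about 0.23. Without replicates, a member near 1.5-fold cannot be separated from one just outside it.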
